A study of Mus musculus with 23 samples.

Results

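The genes described here are 10 genes of the endothelial cells that line brain vessels and of the barrier they form, out of 31829 gene names on the array. Klf2 was included for its measured fall between the FA and the CD arrays, so its values are a description and carry no test. The other 9, Cldn5, Ocln, Pecam1, Tek, Flt1, Kdr, Eng, Slc2a1 and Abcb1a, were chosen by name as endothelial and barrier genes, with earlier results of these arrays known. The study asked how a mother's low-protein diet, with or without added folic acid, affects the brain of her sons. C57BL/6J embryos made by in vitro fertilization were carried by ICR recipient females, which ate their diet from 1 month before embryo transfer until delivery. The pups were delivered by cesarean section, raised by ICR foster mothers and fed the control diet after weaning. Whole brains of adult males, 19 weeks old and used before in behavioral tests, were measured on one-colour arrays, 1 mouse per array and 4 arrays per diet. In the CD group the recipients ate a control diet with 20% casein and 0.02% folic acid. In the PR group they ate a protein-restricted diet with 5% casein and 0.02% folic acid. In the FA group they ate the protein-restricted diet, 5% casein, with folic acid raised to 0.1%.

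Endothelial cells of the brain are joined by tight junctions and carry transporters that decide what passes from blood to tissue. Klf2 is a zinc-finger transcription factor that blood flow induces in endothelium, where it favours a quiet, anti-thrombotic state. The flow signal reaches the Klf2 gene through a kinase cascade that ends at MEF2 factors, and its close relative Klf4 shares much of this regulation.

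Each array held 43020 spots for 39429 probes after control spots, and no spot was saturated. The number of arrays limits the precision. Spots well above background numbered 27068 to 28458 on the CD arrays, 31266 to 33478 on the PR arrays and 30408 to 31672 on the FA arrays. The CD arrays thus had fewer detected spots than every PR and FA array. Each diet's 4 arrays shared 1 scan date, and each diet had its own, so scan and diet cannot be told apart. The arrays came from separate mice, and the p-values below measure a difference against the spread between mice. The diet was given to the recipients, and how many recipients and foster mothers these mice came from is not stated. Mice of a group may therefore be brothers. All 12 probes of the 10 genes were well above background on all 12 arrays. Values are log2 of the deposited normalized intensity with SD over 4 arrays. Summed intensities of marker lists, and a gene's share of them, depend on how strongly each probe responds and are not amounts of RNA. Of the 16 listed endothelial surface markers, 15 were well above background on all 12 arrays, so vessel RNA was measurable in these whole brains. In such bulk tissue, fewer cells of a type and less RNA per cell cannot be told apart.

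Relative to the CD group, Klf2 had lower expression levels in the PR group, and lower levels again with added folic acid. The probe lies at mm9 chr8:74845137-74845196. It read 12.12, 12.06, 12.08 and 12.10 on CD arrays 1 to 4, 11.51, 11.42, 11.52 and 11.54 on the PR arrays, and 11.23, 10.82, 11.24 and 10.98 on the FA arrays. The 3 groups did not overlap: every PR array lay below every CD array, and every FA array below every PR array. The group means were 12.09 ± 0.03, 11.50 ± 0.05 and 11.07 ± 0.21. The difference was -0.59 for PR relative to CD, a ratio of 0.664, and -1.02 for FA relative to CD, a ratio of 0.492, each with a standard error of 0.09. FA relative to PR differed by -0.43, a ratio of 0.741. FA arrays 2 and 4 were the lowest of the 12, and the FA group had the widest spread.

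**Figure D1:**
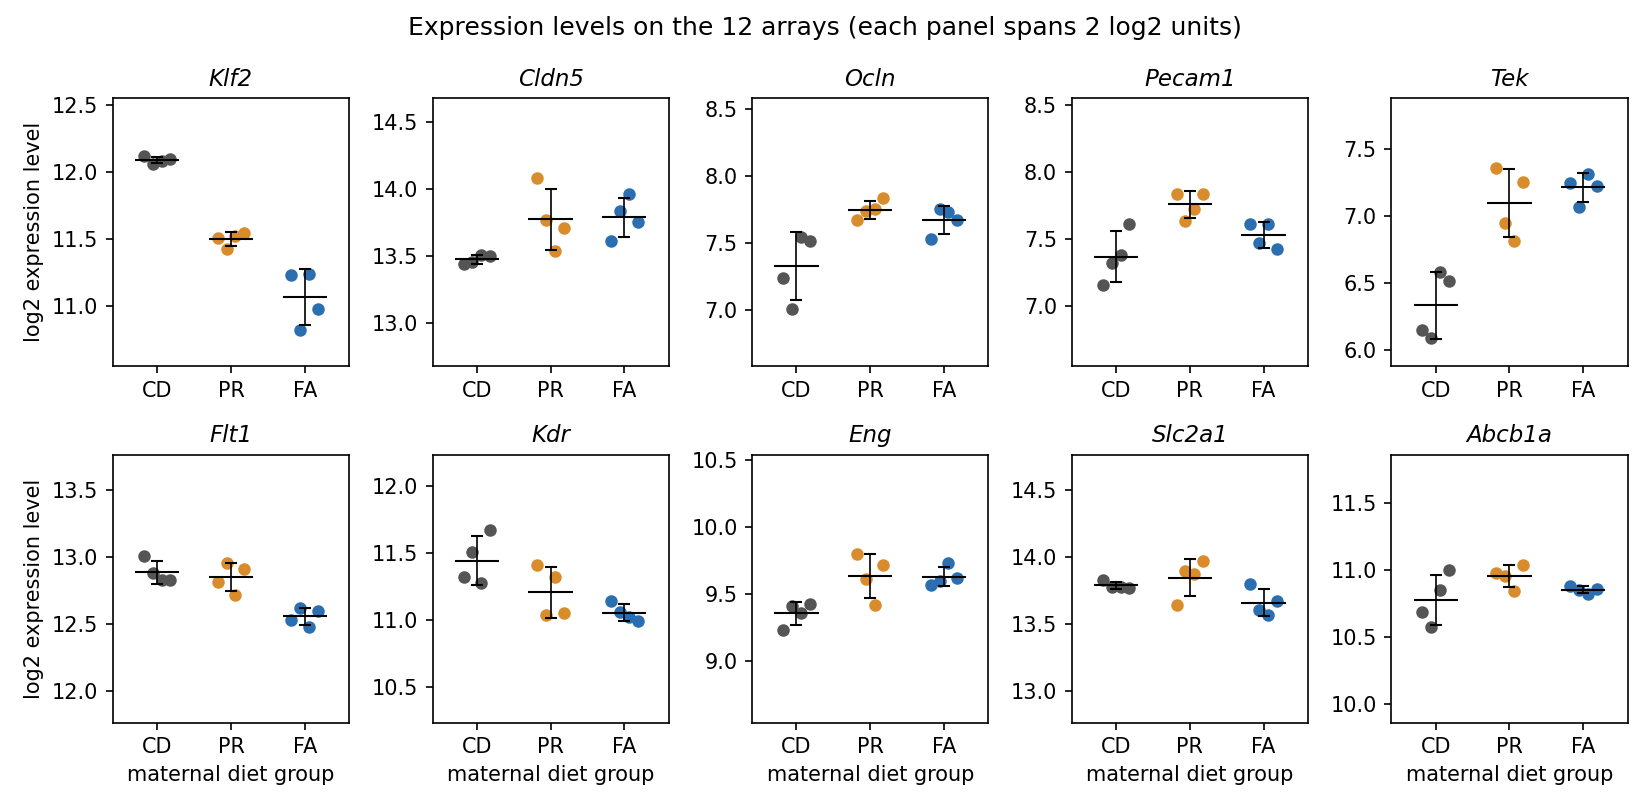
Log2 normalized intensity of each of the 10 genes on each array (points) with the group mean and SD, for the CD, PR and FA groups with 4 arrays each; every panel spans the same number of log2 units. The Klf2 groups do not overlap, while Tek is higher on every PR and FA array than on any CD array.

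In none of the other 9 genes were all 3 groups free of overlap. The share of all probes with 3 such separate groups is not given here, so this count does not show whether Klf2 is unusual. In PR relative to CD, 4 of the 9 rose (Tek, Ocln, Pecam1 and Eng) and 0 fell, at a limma p adjusted over all probes under 0.05. Over all 39429 probes, 30.0% were called in this comparison, 13.4% higher and 16.6% lower. At an unadjusted p under 0.05 the counts were 5 higher and 0 lower, where 41.1% of all probes passed, 18.9% higher and 22.3% lower. The median change of the 9 was 0.28, against -0.02 over all probes, and the range was -0.24 to 0.76. In FA relative to CD, 4 rose (Tek, Ocln, Cldn5 and Eng) and 2 fell (Flt1 and Kdr), while 34.4% of all probes were called, 16.4% higher and 18.0% lower (44.4% unadjusted, 21.5% and 22.8%). Here the median was 0.16, against -0.01 over all probes, and the range was -0.39 to 0.88. In FA relative to PR, 0 of the 9 passed the limma test, where 0.614% of all probes did, 0.228% higher and 0.386% lower. At an unadjusted p under 0.05, 3 of the 9 were lower in the FA group and 0 higher, where 14.1% of all probes passed, 6.10% lower and 8.03% higher. A Tukey test per probe called 0 of the 9 and 8 of all probes. Among probes bright on all 12 arrays, as these are, 30.8% were called in PR against CD, 16.5% higher and 14.3% lower. In FA against CD 37.0% of them were called, 19.9% higher and 17.1% lower. Both comparisons with CD use the same CD arrays, so they are not independent of each other.

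Set against these 9 genes on the same array, Klf2 was lower on every PR and FA array. For each gene the deviation from its CD mean was taken, and the mean deviation of the 9 was subtracted from that of Klf2. The result was -0.90, -0.87, -0.71 and -0.83 on the PR arrays and -0.99, -1.40, -1.01 and -1.23 on the FA arrays. On the CD arrays it ran from -0.12 to 0.11. The group means were -0.83 ± 0.08 for PR and -1.16 ± 0.19 for FA, and the FA value ran from -1.21 to -1.08 over 17 alternatives. The 9 genes themselves averaged 0.24 ± 0.08 above their CD means on the PR arrays and 0.13 ± 0.02 on the FA arrays. On all 8 PR and FA arrays, 0 of the 9 genes deviated as far below its CD mean as Klf2 did. Klf2 was chosen for its fall between FA and CD, so this gap follows in part from the choice. The PR values use the same CD arrays. The gap is therefore a description, and its range over the alternatives is not a test.

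**Figure D2:**
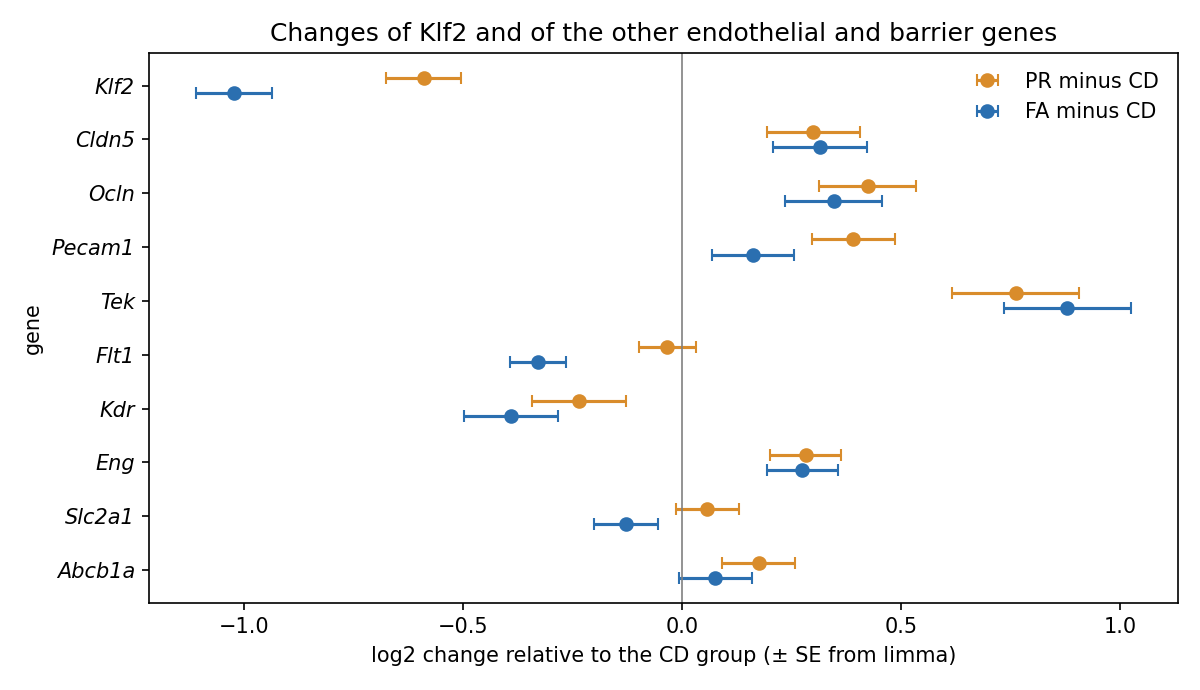
Log2 difference from the CD group for each of the 10 genes, in PR and in FA, with standard errors from the limma fit on 12 arrays. Klf2, which was chosen for its fall, stands at -0.59 and -1.02, and the other 9 lie between -0.39 and 0.88.

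Among the receptors, Tek, the angiopoietin receptor that keeps vessels stable, had the largest rise of the 9 genes in both comparisons with CD. It read 6.15, 6.09, 6.59 and 6.52 on the CD arrays, 7.36, 6.95, 6.82 and 7.26 on the PR arrays, and 7.25, 7.07, 7.32 and 7.23 on the FA arrays (mm9 chr4:94540624-94540683). All 8 PR and FA arrays lay above all CD arrays. The change was 0.76 in PR (1.69-fold, SE 0.14, adjusted p = 0.00318) and 0.88 in FA (1.84-fold, adjusted p = 0.00116). With another background correction (normexp) it was 0.40 and 0.47, and it passed the test under every alternative tried.

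The VEGF receptor genes Flt1 and Kdr, the latter at its brightest probe, went the other way in the FA group. Flt1, which binds VEGF with high affinity and limits its signal (mm9 chr5:148373791-148373850), read 13.01, 12.87, 12.82 and 12.82 on the CD arrays, 12.81, 12.95, 12.72 and 12.91 on the PR arrays, and 12.53, 12.62, 12.48 and 12.59 on the FA arrays. Every FA array lay below every CD and PR array, while the PR and CD arrays overlapped. Flt1 fell by 0.33 in FA relative to CD (SE 0.06, adjusted p = 0.00301), and its PR value was -0.03 (adjusted p = 0.726). FA relative to PR gave -0.30 (adjusted p = 0.0696), which passed the test when dim probes were removed and when the variance was modelled with a trend. Kdr, the main signalling receptor for VEGF, had a brightest probe (mm9 chr5:76330395-76330454) at 11.32, 11.51, 11.28 and 11.68 on the CD arrays, 11.41, 11.04, 11.32 and 11.06 on the PR arrays, and 11.14, 11.06, 11.03 and 10.99 on the FA arrays. The FA arrays all lay below the CD arrays, with a fall of 0.39 (adjusted p = 0.0173) that a Tukey test per probe did not call. The PR value was -0.24 (adjusted p = 0.124). A further Kdr probe, printed in 10 spots about a kilobase away in the genome, did not share this: its means were 9.53 ± 0.05, 9.55 ± 0.21 and 9.57 ± 0.12. Flt4, another VEGF receptor gene, was well above background on 8 of the 12 arrays. It gave 0.99 in PR (adjusted p = 0.104) and 0.94 in FA (adjusted p = 0.113), with no call.

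Eng, the TGF-beta co-receptor endoglin (mm9 chr2:32537268-32537327), was higher in both diet groups by similar amounts. It read 9.23, 9.41, 9.36 and 9.43 on the CD arrays, 9.80, 9.61, 9.42 and 9.72 on the PR arrays, and 9.57, 9.60, 9.73 and 9.62 on the FA arrays. PR array 3 was the only PR or FA array that overlapped the CD arrays. Eng rose by 0.28 in PR (adjusted p = 0.0243) and by 0.27 in FA (adjusted p = 0.0239), and these calls were lost under 7 and 4 of 21 alternatives, among them leaving out CD array 1.

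Of the junction genes, Pecam1, an adhesion molecule of endothelial cell contacts (mm9 chr11:106540864-106540923), rose in the PR group. Its values were 7.15, 7.32, 7.38 and 7.61 in CD, 7.84, 7.63, 7.72 and 7.84 in PR, and 7.61, 7.47, 7.61 and 7.42 in FA. All PR arrays lay above all CD and FA arrays. The change was 0.39 in PR (SE 0.09, adjusted p = 0.0109), kept under every alternative, and 0.16 in FA (adjusted p = 0.215, called without CD array 4). FA relative to PR was -0.23 (adjusted p = 0.307).

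Cldn5, the main claudin of brain endothelium (mm9 chr16:18778046-18778105), read 13.44, 13.45, 13.50 and 13.50 in CD, 14.08, 13.77, 13.54 and 13.71 in PR, and 13.61, 13.83, 13.96 and 13.75 in FA. All 8 PR and FA arrays were above the CD arrays, which lay close together. The change was 0.30 in PR (adjusted p = 0.0576) and 0.31 in FA (adjusted p = 0.0432). The FA call was lost under 13 of 21 alternatives, including leaving out any CD array, and PR was called under 3.

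Ocln, the tight junction protein occludin, has a pair of probes that disagreed. The brighter one (mm9 chr13:101268529-101268588) read 7.24, 7.01, 7.54 and 7.51 in CD, 7.67, 7.74, 7.75 and 7.83 in PR, and 7.53, 7.76, 7.73 and 7.67 in FA. It rose by 0.42 in PR (adjusted p = 0.0158), a call lost with the Tukey test, and by 0.35 in FA (adjusted p = 0.0338), a call lost under 7 alternatives. The PR arrays all lay above the CD arrays, and FA array 1 overlapped them. The dimmer probe (mm9 chr13:101267384-101267443) gave -0.21 (adjusted p = 0.177) and -0.24 (adjusted p = 0.127, called without CD array 2). The gap between the probes depends on processing: with normexp the brighter gave 0.27 and 0.22, still called, and the dimmer -0.044 and -0.014.

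The 2 carriers among the 10 genes passed the test in neither comparison with CD. Slc2a1, the glucose transporter of brain endothelium (mm9 chr4:118809864-118809923), ran from 13.77 to 13.83 in CD, 13.64 to 13.97 in PR and 13.56 to 13.80 in FA. Its changes were 0.06 (adjusted p = 0.582) and -0.13 (adjusted p = 0.199, called with scaling to the 75th percentile). Abcb1a, the drug efflux pump P-glycoprotein (mm9 chr5:8748075-8748134), ran from 10.57 to 11.00 in CD, 10.84 to 11.03 in PR and 10.82 to 10.88 in FA. Its changes were 0.17 (adjusted p = 0.14, called with normexp and without CD array 4) and 0.08 (adjusted p = 0.518).

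Lists of related genes, each counted by its brightest probe, place the 10 in their pathways. Every list count here and below is to be read against the shares over all probes. These were 30.0% called in PR (13.4% higher, 16.6% lower) and 34.4% in FA (16.4% higher, 18.0% lower). At an unadjusted p under 0.05 they were 41.1% and 44.4%. A count near these shares does not set a list apart. Among 16 endothelial surface markers, 5 rose and 0 fell in PR (median 0.10), and 6 rose and 0 fell in FA (median 0.07). At an unadjusted p under 0.05 there was 1 lower in each. Ly6a, a surface marker of mouse endothelium, read 11.08, 11.18, 11.27 and 11.22 in CD, 11.85, 11.63, 11.62 and 11.90 in PR, and 11.77, 11.64, 11.92 and 11.94 in FA. It was above all CD arrays on all 8 others, by 0.57 (adjusted p = 0.00101) and 0.63 (adjusted p = 0.000441). Ly6c1 rose by 0.32 and 0.34, and Emcn, a sialomucin of endothelium, by 0.49 in FA (adjusted p = 0.00366). The junctional cadherin Cdh5 gave -0.11 and -0.16, Vwf -0.08 and -0.25, and Esam 0.11 and -0.02, and none of these passed, though Vwf in FA did with normexp and without FA array 1. Tie1, the partner receptor of Tek, gave -0.12 and -0.03, values that rest on CD array 3, at 10.06 where the other CD arrays lay between 7.85 and 7.95. Without that array Tie1 was higher by 0.42 (adjusted p = 0.00467) and 0.51 (adjusted p = 0.00151). The summed intensity of the 16 markers was 52921 ± 1996 in CD, 58264 ± 2018 in PR and 60439 ± 1052 in FA, of which Ly6c1 held 31.8%. The markers' part in the result on Klf2 was not tested.

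Of 15 tight junction genes, 2 rose and 2 fell in PR (median -0.04), and 2 rose and 3 fell in FA (median -0.06). F11r, a junctional adhesion molecule, fell by 0.21 in PR (adjusted p = 0.00509).

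Of 19 barrier transporters, 4 rose and 1 fell in PR (median 0.10), and 4 rose and 2 fell in FA (median 0.02). Tfrc, the transferrin receptor that carries iron, rose by 0.61 (adjusted p = 0.000347) and 0.71 (adjusted p = 0.000132) at its brightest probe. Its other probes gave -0.09 and 0.05, and -0.03 and -0.45, with no call. Slco1a4, an organic anion carrier, rose by 0.32 and 0.40. Slc7a5, which carries large neutral amino acids, rose by 0.69 (adjusted p = 0.0253) and 0.66 (adjusted p = 0.0263) at its brightest probe, lost under 4 and 5 alternatives, while its other probe gave -0.23 and -0.15.

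Of 21 genes of VEGF and angiopoietin signalling, 2 rose and 1 fell in PR (median 0.05), and 5 rose and 4 fell in FA (median 0.01). The ligand gene Vegfa rose by 0.39 (adjusted p = 0.00569) and 0.44 (adjusted p = 0.00231) at its brightest probe, but its other probe fell by 0.25 and 0.27. The co-receptor gene Nrp2 fell by 0.23 and 0.29 at its brightest probe and by 0.38 and 0.57 at its other one. Of 21 genes of endoglin and TGF-beta signalling, 7 rose and 1 fell in PR (median 0.10), and 4 rose and 5 fell in FA (median 0.03). Id3, a target of BMP signals, rose by 0.33 and 0.36, and Tgfbr3, the co-receptor betaglycan, fell by 0.39 (lost with the Tukey test) and 0.53. Bmpr2, a type II BMP receptor, fell by 0.55 in FA (adjusted p = 0.00222).

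Wnt signals maintain the barrier. Of 16 listed genes of this pathway, 2 rose and 4 fell in PR (median 0.04), and 4 rose and 4 fell in FA (median -0.01). Fzd4, the receptor for norrin, read 9.88 to 10.20 in CD, 9.21, 9.53, 9.43 and 9.45 in PR, and 9.33, 9.25, 9.17 and 9.34 in FA. Its PR and FA arrays all lay below the CD arrays, with falls of 0.62 (adjusted p = 0.000415) and 0.75 (adjusted p = 0.000128). The co-receptor Lrp5 read 11.77, 11.30, 10.76 and 11.02 in CD, against means of 10.16 ± 0.12 in PR and 10.16 ± 0.14 in FA. It fell by 1.05 in both (adjusted p = 0.00188 and 0.00152), and the CD arrays were spread more widely than the others. For Lrp6 the brightest probe fell by 0.24 and 0.50, while its other probe rose by 0.37 in PR (adjusted p = 0.005) and gave 0.14 in FA. The receptor gene Fzd6 rose by 0.30 (adjusted p = 0.0122) and 0.46 (adjusted p = 0.00115). Sox17, an arterial transcription factor, rose by 0.38 and 0.36, while its other probe gave 0.20 and 0.26 with no call. Of 20 endothelial transcription factors, 4 rose and 2 fell in each comparison (medians -0.01), with Foxq1 higher by 0.38 (lost under 3 alternatives) and 0.42.

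Of 20 genes that signal to Klf2, 2 rose and 1 fell in PR (median 0.08), and 4 rose and 1 fell in FA (median 0.04), by their brightest probes. Counted over all 27 probes of these genes, 6 were called in PR and 10 in FA, so the count depends on the choice of probe. Map3k2, a kinase at the head of the cascade, fell by 0.51 (adjusted p = 0.000875) and 0.52 (adjusted p = 0.000636), and Map3k3, its relative, rose by 0.32 in PR (adjusted p = 0.00762). The next kinase, Map2k5, gave -0.08 and -0.03 at its brightest probe, while its other probe rose by 0.24 and 0.40. Mapk7, the last kinase, gave 0.12 in PR and rose by 0.13 in FA (adjusted p = 0.0383), lost under 9 alternatives. The 4 MEF2 genes were not called at their brightest probes (Mef2b was without CD array 4), with 0.09 and 0.05 for Mef2a, 0.22 and 0.19 for Mef2b, 0.06 and 0.00 for Mef2c and 0.07 and 0.01 for Mef2d. Another Mef2a probe fell by 0.44 in FA. Hdac5 and Hdac7 encode deacetylases that hold MEF2 back: Hdac5 rose by 0.27 in PR, a call lost with scaling to the 75th percentile, and Hdac7 by 0.29 in FA (adjusted p = 0.00601). Krit1 rose by 0.16 in FA (adjusted p = 0.0467), lost under 14 alternatives, and its other probe rose by 0.43 (adjusted p = 0.0119) and 0.58 (adjusted p = 0.00222). The flow sensor Piezo1 gave 0.01 in each.

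Of the 25 listed targets of Klf2, 5 rose and 5 fell in PR (median -0.08). In FA 2 rose and 7 fell (median -0.10). Over all probes, 13.4% were called higher and 16.6% lower in PR, and 16.4% and 18.0% in FA. Of the 25 targets, 18 were well above background on all arrays and Icam1 and Sele on none. Thbd, the anti-thrombotic receptor thrombomodulin, fell by 0.34 in FA (adjusted p = 0.0111), and its PR value was -0.11. S1pr1, a receptor that tightens the endothelial barrier, fell by 0.20 and 0.22 (adjusted p = 0.0185 and 0.0108). Nos3, the endothelial nitric oxide synthase, rose by 0.21 in PR (adjusted p = 0.0167), lost in a fit of only the 2 groups. Its other probe rose by 0.39 and 0.31. Tek, listed here too, rose as given above.

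Klf4 was the member of the Klf family most like Klf2. It read 10.10, 9.86, 9.93 and 9.86 in CD, 9.56, 9.48, 9.43 and 9.66 in PR, and 9.25, 9.20, 9.36 and 9.15 in FA. As with Klf2, the 3 groups did not overlap and the FA arrays were lowest. The share of all probes with 3 such separate groups is not given here, so this does not set the pair apart. Klf4 fell by 0.41 in PR (adjusted p = 0.00232) and by 0.70 in FA (adjusted p = 0.0001), under every alternative, and FA relative to PR gave -0.29 (adjusted p = 0.104). Of the 16 Klf genes tested, Klf2 aside, 3 rose and 2 fell in PR (median 0.03), and 1 rose and 4 fell in FA (median -0.04). Klf15 fell by 0.59 in FA (adjusted p = 0.00167), and Klf7 fell by 0.25 and 0.27. Klf12 rose by 0.37 in PR (adjusted p = 0.00606).

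**Figure D3:**
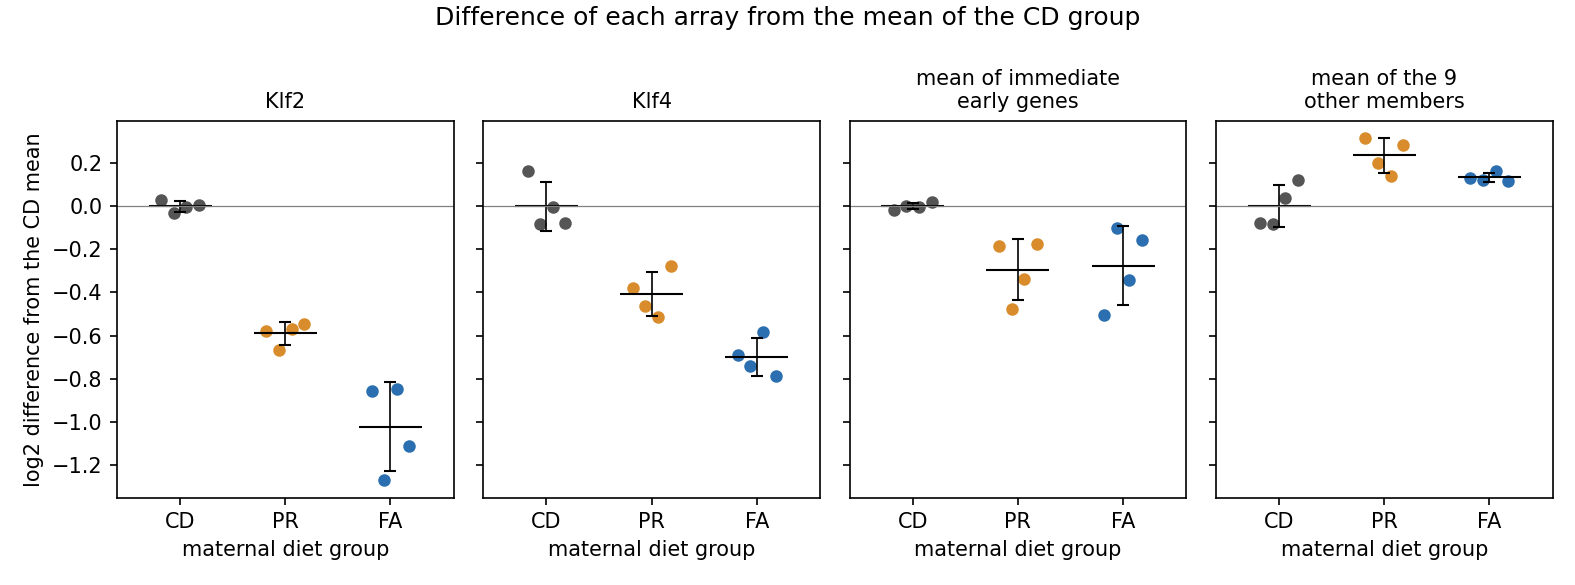
Log2 difference from the CD group mean on each of the 12 arrays (points), with the group mean and SD, by diet group. The panels show Klf2, Klf4, the mean of the immediate early genes bright on all arrays, and the mean of the 9 other genes. For Klf2 and Klf4 the CD arrays lie highest, the PR arrays between, and the FA arrays lowest.

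Over the 12 arrays, Klf4 ranked 2 among 21673 bright probes with a gene symbol by correlation with Klf2 (Pearson r = 0.961, Spearman rho = 0.965). The other 4 of the first 5 were Gm4535 (r = 0.965), Zfhx3 (0.961), Aldh1a2 (0.959) and Tnfaip8 (0.959). These values mostly follow the differences between the diet groups. After each group's mean was removed, the first 5 were Bfsp2 (0.988), Iscu (0.945), Cdr2 (0.944), Proca1 (0.933) and Slc14a2 (0.932), and Klf4 had an r of 0.486. With group means removed, r rests mostly on the FA arrays, where the SD of Klf2 was 0.21, against 0.03 in CD and 0.05 in PR. The first 5 are also the highest values among the 21673 probes. Of the 9 other genes, Kdr (0.758) and Flt1 (0.701) had the highest r with Klf2 over the 12 arrays and Tek (-0.798) the lowest. After group means were removed, r was 0.118 for Kdr, and changed sign to -0.426 for Flt1 and 0.318 for Tek.

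The promoter of Klf2 is shown, with the 250 bases before the start of the gene from RefSeq (GRCm38.p6, chr8:72318812-72319061, plus strand). Promoters of 9 of the 10 genes were matched by symbol, all but Pecam1. They were searched on both strands for the MEF2 box CTANNNNTAG, the Klf box CCACCC and the GC box GGGCGG. Of the 9, Klf2 alone held a MEF2 box, which starts at base -118 and is in capitals, and 3.20% of 32851 promoters held one. The Klf box was in 6 of the 9 and in 28.1% of all promoters, and the GC box in 6 of the 9 and in 32.7%. A match describes the letters only and is not evidence of binding. The promoter of Klf4 held 0 MEF2 boxes and 4 GC boxes.
Klf2: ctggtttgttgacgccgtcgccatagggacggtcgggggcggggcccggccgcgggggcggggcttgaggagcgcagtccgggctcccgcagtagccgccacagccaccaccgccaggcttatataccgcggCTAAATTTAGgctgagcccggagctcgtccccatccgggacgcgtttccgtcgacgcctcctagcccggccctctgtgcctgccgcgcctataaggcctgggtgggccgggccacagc

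Klf4 is also listed among the immediate early genes, which a brain switches on within minutes of stimulation. Of 30 such genes, 0 rose and 10 fell in PR (median -0.28), and 0 rose and 11 fell in FA (median -0.32). At an unadjusted p under 0.05, 1 was higher in PR and 0 in FA. Atf3 fell by 0.79 (adjusted p = 0.00019) and 0.81 (adjusted p = 0.000152), or by 0.41 and 0.37 with normexp. Egr2 fell by 0.72 (lost under 8 alternatives) and 0.84 (lost with the Tukey test). Sgk1 read 14.10, 13.97, 14.09 and 14.03 in CD, 12.67, 13.92, 14.19 and 13.91 in PR, and 13.26, 12.58, 13.19 and 12.82 in FA, a fall of 1.09 in FA (adjusted p = 0.0146) lost with the Tukey test. The mean deviation of the 29 bright genes was -0.19, -0.48, -0.34 and -0.18 on the PR arrays and -0.50, -0.10, -0.34 and -0.16 on the FA arrays. The summed intensity was 173887 ± 2812 in CD, 143475 ± 11622 in PR and 136720 ± 16156 in FA, of which Egr1 held 13.6%. The part of these genes in the result on Klf2 was not tested. The number lower ran from 3 to 14 in PR and from 8 to 12 in FA over the alternatives.

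Of 15 genes of pericytes and smooth muscle, 3 rose and 0 fell in PR (median 0.09; 4 higher and 0 lower unadjusted), and 1 rose and 1 fell in FA (median 0.07). Rgs5, a pericyte gene, read 10.54, 10.42, 10.60 and 10.57 in CD, 11.18, 11.09, 10.91 and 11.21 in PR, and 10.83, 10.63, 10.77 and 10.79 in FA. It rose by 0.57 in PR (adjusted p = 0.000355) and by 0.22 in FA (adjusted p = 0.0392, lost under 9 alternatives). Notch3, a receptor of mural cells, fell by 0.30 in FA (adjusted p = 0.00332). Their summed intensity was 25707 ± 601, 28302 ± 855 and 26162 ± 949, of which Vtn held 49.9%.

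Of 11 basement membrane genes, 2 rose and 3 fell in PR (median -0.02), and 1 rose and 3 fell in FA (median 0.03). The collagen gene Col4a2 rose by 0.42 (adjusted p = 0.0045) and 0.46 (adjusted p = 0.0024), and Col4a1 by 0.33 in PR (adjusted p = 0.000942). Hspg2, which encodes perlecan, fell by 0.37 (adjusted p = 0.00776) and 0.60 (adjusted p = 0.000394). Of 12 genes of perivascular fibroblasts and meninges, 1 rose and 3 fell in PR (median -0.12), and 0 rose and 6 fell in FA (median -0.15; 0 higher unadjusted). Their mean deviation was 0.08, -0.29, -0.27 and -0.27 on the FA arrays, so FA array 1 stood apart, and without it 10 fell. The summed intensity was 31202 ± 674, 29666 ± 682 and 27252 ± 3783, of which Dcn held 28.0%.

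Markers of vein and activated endothelium (11 genes) gave 1 higher and 2 lower in PR and 3 higher and 2 lower in FA, and those of arterial endothelium (10) gave 2 lower in PR and 1 lower in FA, with 0 higher (1 and 0 unadjusted). Bmx, an arterial kinase, fell by 0.31 and 0.29 at its brightest probe, while its other probe, near background on all arrays, gave 0.31 and 0.26 with no call. Their sums were 21168 ± 1293, 20329 ± 512 and 20026 ± 1063 (Ackr1 46.6%) and 61062 ± 3061, 59971 ± 1286 and 63300 ± 1897 (Stmn2, which neurons also express, 80.2%). Of 12 astrocyte genes, 3 rose and 1 fell in PR, and 1 rose and 1 fell in FA, with sums of 199683 ± 10068, 205575 ± 4301 and 203939 ± 3994 (S100b 27.3%). Gfap rose by 0.43 and 0.32 at its brightest probe and by 0.57 and 0.48 at another, but its remaining probe, also bright, gave 0.15 and 0.00 with no call. Aqp4, the water channel of astrocyte endfeet on vessels, fell by 0.21 in PR (adjusted p = 0.0358, lost under 10 alternatives) and 0.35 in FA (adjusted p = 0.00256). Of 12 microglia genes, 1 rose and 1 fell in PR, and 1 rose and 3 fell in FA, with sums of 89408 ± 14967, 84357 ± 3712 and 83815 ± 2699 (Itgam 24.0%). Of 8 genes of perivascular macrophages, 2 fell in PR and 1 in FA, with 0 higher (1 and 0 unadjusted), Stab1 in each by 0.24 and 0.34, and sums were 3248 ± 58, 3204 ± 229 and 3107 ± 153 (Stab1 25.3%).

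Klf2 is also made by lymphocytes, whose markers were near background: 3 of 11 were above it on all arrays and Ms4a1 on none. Of the 11, 1 rose and 3 fell in each comparison, and the sum was 3269 ± 409, 2626 ± 274 and 2328 ± 86, of which Cd4 held 65.5%. Cd4 fell by 0.62 in FA (adjusted p = 0.00185), and another probe of it gave 0.26. Of 9 granulocyte genes, 0 were called in either direction, also unadjusted, with sums of 1915 ± 135, 3134 ± 2831 and 3277 ± 1867 (S100a9 39.8%). Of 9 red blood cell genes, 1 rose in PR, and 1 rose and 1 fell in FA, with sums of 156096 ± 7275, 154777 ± 23988 and 147592 ± 18842 (Hba-a1 50.1%). Of 11 choroid plexus genes, 2 fell in each comparison and 0 rose (1 and 0 unadjusted), with sums of 150062 ± 3463, 157296 ± 6290 and 145323 ± 9696 (Ttr 48.2%). The part of these cell types in the result on Klf2 was not tested.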

How the data were processed

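Whole brains of 12 mice, 4 per diet group, were measured on one-colour arrays annotated to mm9. Spot intensity came from Feature Extraction 11.0.1.1, per the file headers, with other columns of flags per spot (well above background, saturated, outlier). The authors normalized these with qspline and deposited 1 linear intensity per probe, whose log2 was used here. Groups were the diet labels, and the methylation arrays were not analysed here.

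A single limma model (3.58.1, R 4.3.3) covered the 3 groups (lmFit and eBayes, also tested on simulated data), with Benjamini-Hochberg adjustment over all 39429 probes of a comparison and calls at an adjusted p under 0.05. Also used were Python 3.11.15, the R package data.table (1.17.8), numpy 2.4.6, pandas 2.3.3 and matplotlib 3.10.9. Gene symbols were those in the files. A gene was represented by its brightest probe over the 12 arrays. Probes counted as well above background where 50% or more of their spots had that flag.

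The 10 genes and the lists were chosen with earlier results of these data known. Named from each list were up to 3 genes per comparison with the largest change among those called and bright on all 12 arrays, defining and brightest markers, any gene of the Klf2 inputs, Klf2 targets and Klf family, and the 5 probes most correlated with Klf2. Fzd6 was named after its values were seen. Further probes are given for some of the named genes, and per-array values of listed genes were chosen after they were seen.

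Alternatives were scaling of the scanner signal to the 75th percentile, quantile normalization, normexp background correction (offset 50), leaving out outlier spots or dim probes, a replicate block, eBayes with trend and robust estimation, only the 2 groups compared, a Tukey test per probe (the authors used one at a stricter p and with a fold limit, here an adjusted p under 0.05 and none), all probes of a gene in place of the brightest, and leaving out each array in turn.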

Additional observations from a re-analysis of the deposited data

Results flagged for a closer look

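Among 72 groups of 4 arrays checked, 3 had an array far from the other 3 by Dixon's gap test; chance flags about 1 in 20 groups. Slc2a1 was 13.83 on CD array 1 and 13.77 to 13.78 on the other CD arrays. Tie1 was 10.06 on CD array 3 and 7.85 to 7.95 on the other CD arrays, a gene added to the check after its values were seen. The mean deviation of the genes of perivascular fibroblasts and meninges was 0.082 on FA array 1 and -0.29 to -0.27 on the other FA arrays.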

How the results depend on the processing

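Klf2 relative to CD ranged from -0.63 to -0.56 in PR and from -1.08 to -0.94 in FA over 21 alternatives, and FA relative to PR from -0.49 to -0.35. Tek in both comparisons, Pecam1 in PR and Flt1 in FA were called under all 21. Probes called numbered 8341 to 14546 for PR against CD (11820 as reported) and 10037 to 15597 for FA against CD (13558). The share of called probes that were higher in PR, 44.7%, became 56.2% with normexp and 55.5% without dim probes. Leaving out 1 array gave 9378 to 12266 and 11465 to 13848.

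FA against PR, with 242 called, moved most: 136 with scaling to the 75th percentile, 554 without dim probes, 436 with trend and robust estimation, 101 with only the 2 groups, 8 with the Tukey test, and 34 to 259 when 1 array was left out. Of the 9 other genes, the Tukey test called 2 in each comparison with CD in place of 4 and 6, and leaving out 1 array gave 3 to 6 in FA against CD, with 3 without CD array 1 or FA array 3. In FA against PR, 1 was called without dim probes and with trend and robust estimation. Sele, above background on no array, reversed to 0.031 in PR with normexp. The cause was not tested. Tie1 reversed to 0.42 in PR and 0.51 in FA without CD array 3, its high array, and became -0.32 and -0.23 without CD array 4.

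With the replicate number as a block, FA against PR had 11 calls. The numbers do not pair mice: arrays of like number in different groups correlated at -0.063 to 0.196 over 23753 bright probes, more than with the other numbers in 5 of 12 pairs. A scan block was not run, since each scan holds 1 diet.

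Counting all probes of the listed genes in place of the brightest gave 7 higher and 0 lower of 20 endothelial surface probes in PR and 10 and 0 in FA. It also moved the calls among genes that signal to Klf2 from 3 to 6 in PR and from 5 to 10 in FA, and of basement membrane genes from 5 to 8 in PR and from 4 to 7 in FA. List medians near 0 changed sign among alternatives: in FA that of the barrier transporters ran from -0.01 to 0.04, and that of the endothelial surface markers, which kept its sign, from 0.05 to 0.13. Differences in dim probes are limited by signal over background, and normexp shrank them.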
